A study of Mus musculus with 3 samples.

Results

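The 10 genes described here encode the proteins that store, release and take back calcium in skeletal muscle fibres. They are the pump genes Atp2a1 and Atp2a2, the pump regulator genes Sln and Pln, the calsequestrin genes Casq1 and Casq2, the release channel gene Ryr1, the junctophilin genes Jph1 and Jph2, and the parvalbumin gene Pvalb. They were chosen by name, and their probes were found by matching the accession of each array probe to RefSeq. All 10 were on the array, with 12 probes of the 39429 that were not controls, against 32395 genes or unnamed accessions in all. Atp2a2 and Pvalb had a pair of probes each and the others had 1.

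In a muscle fibre, the membrane signal is passed to the ryanodine receptor, which lets calcium out of the sarcoplasmic reticulum, and the SERCA pumps bring it back. Calsequestrins hold calcium inside the store, junctophilins tie the store to the surface tubules, and parvalbumin binds calcium in the cytosol of fast fibres. Fast fibres rely mainly on SERCA1 and calsequestrin 1, while SERCA2 and phospholamban are typical of slow fibres and of the heart, and sarcolipin and phospholamban both restrain the pumps.

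Muscle of mFoxO1KO mice, in which Foxo1 had been deleted inducibly in skeletal muscle, was compared with muscle of control mice. Foxo1 encodes a forkhead transcription factor. All mice were male C57BL/6, and both genotypes received an AIN93G diet with 0.625 g/kg doxycycline between 8 and 14 weeks of age. RNA came from lower-limb skeletal muscle, and which muscles were taken and which promoter drove the deletion is not given in the sources used here. Each of the 3 arrays carried 1 knockout sample in Cy5 and 1 control sample in Cy3. The dyes were never swapped, so a dye effect of a probe and an effect of genotype cannot be told apart in any ratio below. The deletion is specific to skeletal muscle by its label, so other cells of whole muscle keep Foxo1, and fewer cells of a type and less RNA per cell cannot be told apart in these samples.

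Values are either log2 intensities of one sample, after correction for background and dye, or log2 ratios of mFoxO1KO over control on one array. The mean ratio was tested against 0 with limma, and an adjusted p under 0.05 (Benjamini-Hochberg over 17477 genes) was the threshold. Errors after ± are the SD over arrays. The labels do not say whether each sample came from a separate mouse or a pool, so p-values measure only the spread between arrays. The scanner software called 56.1% to 56.9% of probes well above background in knockout samples and 52% to 55.9% in control samples, and marked no spot as saturated. Across genes, which are no independent replicates, Pearson's r between the ratios of array pairs was 0.51 to 0.54. The brighter Foxo1 probe had a log2 ratio of -2.06 ± 0.49 (n = 3 arrays, limma adjusted p = 0.0281), or 23.9% of control, and an adjusted p of 0.105 without replicate 2. The second Foxo1 probe had -1.39, or 38.1% of control, and did not pass (limma, adjusted p = 0.0537 over all probes).

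None of the calcium handling genes passed the test. Of the 10 genes, 9 were well above background and were tested, with 0 past the threshold (limma), where 2.67% of all genes tested passed. At an unadjusted p under 0.05 there were 3 of the 9, namely Atp2a2, Casq1 and Ryr1, against 26.8% of all genes. In 4 of the 9 the knockout and control samples did not overlap, against 25.9% of all genes. On all 3 arrays 8 of the 9 had 1 sign, against 52.4% of all genes. The gene not counted as having 1 sign was Atp2a1, which was measured on only 2 arrays and was 1 of the 4 without overlap. The 9 mean ratios lay between -0.36 and 0.43, with a median of -0.10 against 0.01 over all genes. Atp2a2, Sln and Casq2 had ratios above 0, and the other 6 had ratios below 0.

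**Figure D1:**
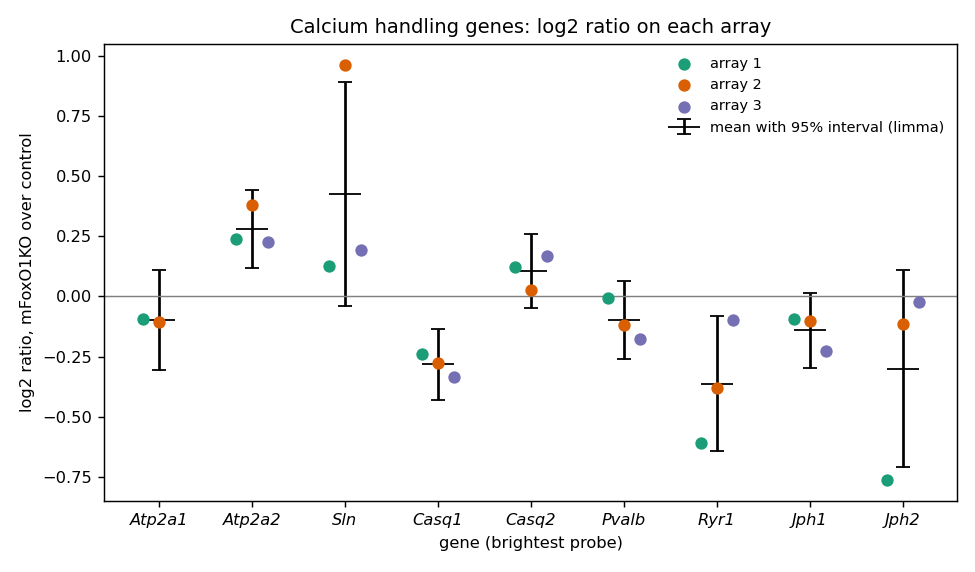
Log2 ratio of mFoxO1KO over control (y axis) for the 9 tested genes (x axis), with 1 point per array, and the mean with its 95% interval from limma. Sln on array 2 and Jph2 on array 1 lie far from the other arrays, the Ryr1 points are spread evenly, and Atp2a1 has no point for array 3.

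The pump genes had ratios of opposite sign. Atp2a1 encodes SERCA1, the pump of fast fibres. Its log2 intensity was 16.08 and 16.16 in the mFoxO1KO samples of arrays 1 and 2, against 16.17 and 16.26 in the control samples. The knockout samples lay just below both control samples. The mean ratio was -0.10 ± 0.01 (n = 2 arrays, limma adjusted p = 0.447), with a 95% interval of -0.31 to 0.11. The knockout spot of array 3 was marked as non-uniform by the scanner software and was left out. That spot had a raw signal of 14768 in the knockout channel against 46713 in the control channel, while the knockout signals of the other arrays were 93731.5 and 94156. With that spot kept, a choice made after seeing the data, the mean ratio was -0.94 and the adjusted p 0.322.

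Atp2a2 encodes SERCA2, the pump of slow fibres and heart, with a form that most other cells use. Its brighter probe had log2 intensities of 9.71, 9.81 and 9.90 in mFoxO1KO muscle, against 9.47, 9.44 and 9.68 in control muscle. Every knockout sample lay above every control sample. The ratios were 0.24, 0.38 and 0.22 on the 3 arrays, and their mean of 0.28 ± 0.08, or 1.22-fold, did not pass (limma, adjusted p = 0.0818). Its 95% interval ran between 0.12 and 0.44. The dimmer probe, well above background on 3 knockout arrays and 2 control arrays, had a mean ratio of 0.09 ± 0.03 (n = 3, limma adjusted p = 0.357 over all probes). It was dim, with log2 intensities of 6.63, 6.75 and 6.80 in mFoxO1KO muscle, against 6.57, 6.63 and 6.72 in control muscle. Thus both probes lay above 0 on every array, and the gap between their means depended on the processing. With the signals as processed by the scanner software the dimmer probe had 0.30 and the brighter 0.28. With local background subtracted they had 0.22 and 0.31. In a fit of the separate channels with the array as a block, the Atp2a2 ratio passed (limma, adjusted p = 0.0485), where 9.36% of all genes passed. Its adjusted p ranged from 0.0485 to 0.327 over 19 alternatives.

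The regulators of the pumps were Sln, for sarcolipin, and Pln, for phospholamban, both small membrane proteins. Sln had log2 intensities of 8.44, 10.02 and 9.35 in mFoxO1KO muscle, against 8.32, 9.06 and 9.15 in control muscle. The sample pairs differed in level by more than the genotypes did on average. Both samples of array 1 lay below all others, and only the knockout sample of array 2 stood well above the rest. The ratios of 0.13, 0.96 and 0.19 had a mean of 0.43 ± 0.46 (n = 3, limma adjusted p = 0.209), with a 95% interval of -0.04 to 0.89. Without replicate 2 the mean was 0.16. With median centring in place of loess the Sln ratio passed, at 0.60 (limma, adjusted p = 0.0253), where 7.07% of all genes passed and the median of all genes was 0.16. The adjusted p of Sln ranged from 0.0253 to 0.611 over 19 alternatives.

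Pln stayed near background. It was well above background in no knockout sample and in 1 control sample, that of array 2, and it was not tested. Its log2 intensities were 6.60, 6.45 and 6.48 in mFoxO1KO muscle, against 6.37, 6.61 and 6.40 in control muscle, and no fold is given. Of 6 heart markers, Nppa, Nppb, Tnni3 and Myl7 were well above background in no sample and Myh6 in 2 mFoxO1KO and 2 control samples. The remaining marker, Tnnt2, was tested and had a mean ratio of -0.21 ± 0.08 (n = 3, limma adjusted p = 0.122).

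**Figure D2:**
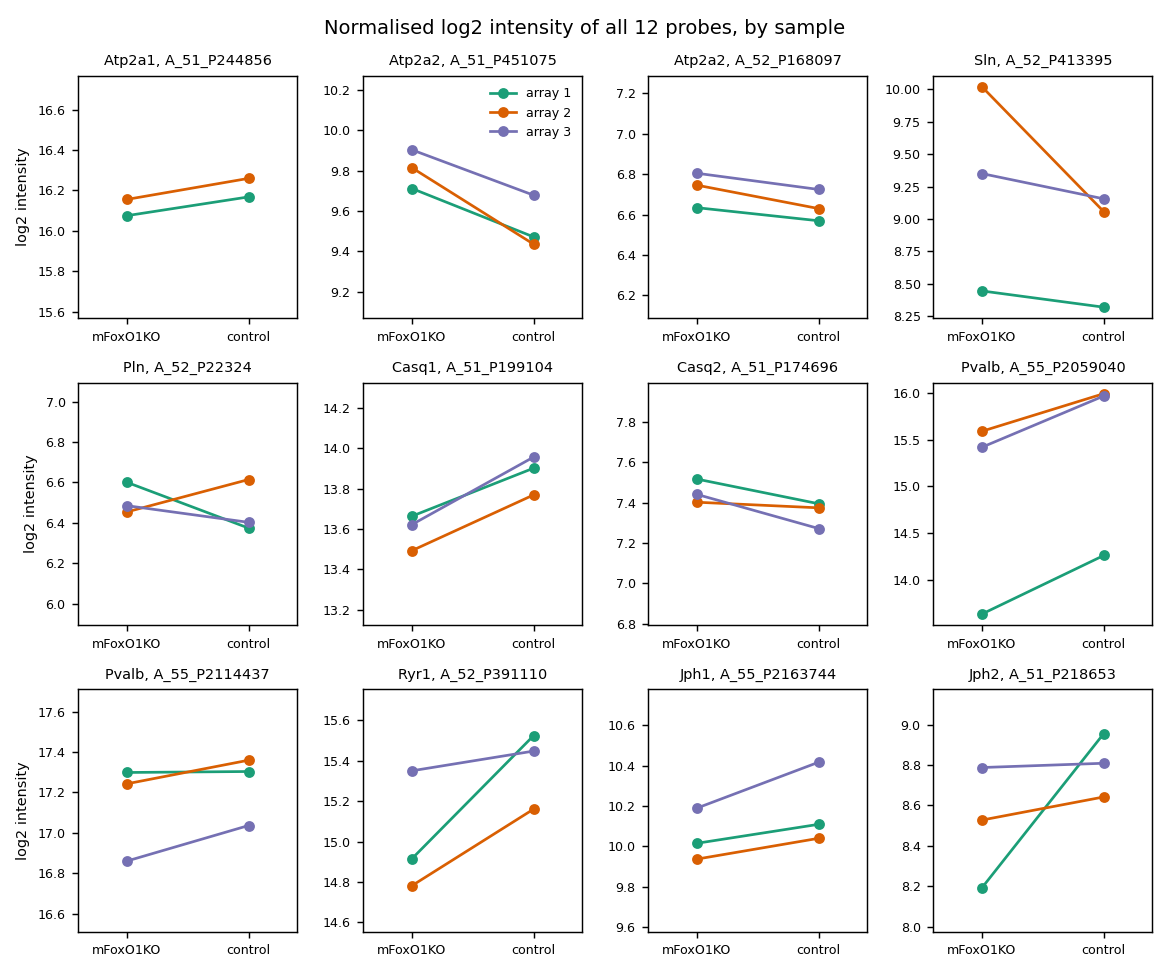
Normalised log2 intensity (y axis, a different range in each panel) of all 12 probes in mFoxO1KO and control samples (x axis), with a line joining the samples of 1 array. Lines slope down to the right for both Atp2a2 probes, Sln and Casq2 and up for Casq1, Ryr1 and Jph1, and the dimmer Pvalb probe was far lower on array 1 in both genotypes.

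The store proteins were the calsequestrins, which bind calcium inside the reticulum. Casq1, the main form of fast fibres, had log2 intensities of 13.66, 13.49 and 13.62 in mFoxO1KO muscle, against 13.90, 13.77 and 13.96 in control muscle. All knockout samples lay below all control samples. The ratios of -0.24, -0.28 and -0.33 were the closest to one another of any gene of the set measured on 3 arrays. Their mean was -0.28 ± 0.05, or 82.2% of control, and did not pass (limma, adjusted p = 0.0709), with a 95% interval of -0.43 to -0.14. The Casq1 ratio passed in the fit of separate channels with the array as a block (limma, adjusted p = 0.0353). It was 0.0032 with median centring, which is 0.15 below the median of all genes in that setting, within a range of adjusted p from 0.0353 to 0.993 over 19 alternatives.

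Casq2, the calsequestrin of heart and slow fibres, was dimmer and had log2 intensities of 7.52, 7.40 and 7.44 in mFoxO1KO muscle, against 7.39, 7.37 and 7.27 in control muscle. The groups did not overlap, but the lowest knockout and the highest control sample were nearly equal. The mean ratio was 0.11 ± 0.07 (n = 3, limma adjusted p = 0.315), with an interval of -0.05 to 0.26. On each array the Casq1 ratio lay below the Casq2 ratio, by 0.36, 0.30 and 0.50. The mean difference was -0.39 ± 0.10, and an exact two-sided sign-flip permutation test gave p = 0.25, the smallest that 3 arrays allow. The Atp2a1 ratio likewise lay below the Atp2a2 ratio on both arrays that measured it, by 0.33 and 0.48.

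Promoter sequences of the calsequestrin genes are shown because their ratios lay on opposite sides of 0, and those of Pvalb because its probes differed. They come from RefSeq on GRCm38.p6, which held 9 promoters of 7 of the 10 genes, each running 250 bases before to 50 bases after an annotated start. Sequences were searched on both strands for GTAAACA, a forkhead binding motif, for CANNTG, the E-box that MyoD and its relatives bind, for TATAAA, and for the MEF2 and CArG motifs of muscle promoters, of which MEF2 and TATAAA can overlap. Casq1 lies at chr1:172219846-172220145 on the minus strand and Casq2 at chr3:102086165-102086464 on the plus strand. The Pvalb promoters lie on the minus strand at chr15:78206351-78206650, the outer start, and chr15:78204188-78204487, the inner start. Capitals mark CANNTG.
Casq1: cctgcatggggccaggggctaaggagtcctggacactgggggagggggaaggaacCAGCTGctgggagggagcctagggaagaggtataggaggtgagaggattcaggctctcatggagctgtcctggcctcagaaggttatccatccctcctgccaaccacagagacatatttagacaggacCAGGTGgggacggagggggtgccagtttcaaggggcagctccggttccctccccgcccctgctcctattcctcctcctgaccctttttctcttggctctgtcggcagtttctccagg
Casq2: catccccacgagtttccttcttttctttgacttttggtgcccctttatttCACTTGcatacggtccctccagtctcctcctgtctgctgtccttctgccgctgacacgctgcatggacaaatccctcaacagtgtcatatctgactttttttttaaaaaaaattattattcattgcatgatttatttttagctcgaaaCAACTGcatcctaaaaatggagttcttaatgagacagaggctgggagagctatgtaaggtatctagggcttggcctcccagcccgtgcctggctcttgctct
Pvalb, outer start: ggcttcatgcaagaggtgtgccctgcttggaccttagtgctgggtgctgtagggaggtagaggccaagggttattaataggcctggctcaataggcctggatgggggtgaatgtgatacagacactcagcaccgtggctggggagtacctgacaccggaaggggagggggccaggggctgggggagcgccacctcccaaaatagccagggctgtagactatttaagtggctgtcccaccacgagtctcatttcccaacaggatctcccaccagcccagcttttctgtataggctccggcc
Pvalb, inner start: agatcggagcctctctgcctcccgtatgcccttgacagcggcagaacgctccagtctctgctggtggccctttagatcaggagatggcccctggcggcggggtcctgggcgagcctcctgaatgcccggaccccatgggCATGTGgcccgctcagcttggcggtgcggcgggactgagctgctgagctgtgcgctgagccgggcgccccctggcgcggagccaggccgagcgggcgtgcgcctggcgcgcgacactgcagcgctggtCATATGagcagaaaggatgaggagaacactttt

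The letters GTAAACA occurred in none of the 9 promoters, against 3.65% of all 32851 promoters of that length. CANNTG occurred 2 times each in those of Casq1, Casq2 and Pln and at the inner start of Pvalb. It occurred 1 time each in that of Atp2a1 and both of Jph2, whose windows overlap and share the same site. It was not found in that of Ryr1 or at the outer start of Pvalb. CANNTG is found in 72.3% of all promoters. TATAAA occurred 1 time, in that of Pln, against 13.6% of all. The strict forms of the MEF2 and CArG motifs occurred in none, against 0.557% and 1.63% of all, and looser forms were not searched. A match is a description of the letters in this window and not of binding.

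Pvalb encodes parvalbumin, the calcium buffer that speeds relaxation of fast fibres. Its brighter probe had log2 intensities of 17.30, 17.24 and 16.86 in mFoxO1KO muscle, against 17.30, 17.36 and 17.04 in control muscle. The groups overlapped, and both samples of array 3 were the lowest of their genotype. The mean ratio was -0.10 ± 0.09 (n = 3, limma adjusted p = 0.360), with an interval of -0.26 to 0.06. The second probe, matched to the same transcript, had 13.64, 15.59 and 15.42 in mFoxO1KO muscle, against 14.26, 15.99 and 15.97 in control muscle. Both samples of array 1 lay far below the others on that probe, which they did not on the first. Its ratios were -0.63, -0.40 and -0.55.

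The second Pvalb probe had a mean ratio of -0.53 ± 0.11, or 69.5% of control, and was the 1 probe of the 11 tested that passed (limma, adjusted p = 0.0441 over all probes), where 2.74% of all 21422 probes passed. It lost the call without replicate 1, 2 or 3, with adjusted p of 0.0618, 0.132 and 0.0885, and its adjusted p ranged from 0.0268 to 0.710 over 17 alternatives. Its ratio lay below that of the first probe on every array, by a mean of 0.43 on the log2 scale. The Pvalb and Atp2a1 ratios also moved with the dye correction. The first Pvalb probe had a ratio of -0.36 with the signals as processed by the scanner software (adjusted p = 0.0969) and 0.34 with median centring (adjusted p = 0.192), while the second probe had -0.66 and -0.17 and Atp2a1 had -0.22 and 0.26 in those settings.

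Ryr1 encodes the calcium release channel of skeletal muscle. Its log2 intensities were 14.92, 14.78 and 15.35 in mFoxO1KO muscle, against 15.52, 15.16 and 15.45 in control muscle. The knockout sample lay below the control sample of the same array each time, but that of array 3 was above the control sample of array 2. The ratios of -0.61, -0.38 and -0.10 had a mean of -0.36 ± 0.26, or 77.8% of control (n = 3, limma adjusted p = 0.127), with an interval of -0.64 to -0.08. The adjusted p ranged from 0.0949 to 0.968 over 19 alternatives, and the ratio was below 0 in all 19. It was -0.24 without replicate 1, -0.49 without replicate 3 and -0.01 with median centring, or 0.17 below the median of all genes there.

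The junctophilins hold the reticulum close to the transverse tubules. Jph1, the form of skeletal muscle, had log2 intensities of 10.02, 9.94 and 10.19 in mFoxO1KO muscle, against 10.11, 10.04 and 10.42 in control muscle. The groups overlapped, and both samples of array 3 were the highest of their genotype. The mean ratio was -0.14 ± 0.07 (n = 3, limma adjusted p = 0.215), with an interval of -0.30 to 0.01. Jph2, the form shared with the heart, had 8.19, 8.53 and 8.79 in mFoxO1KO muscle, against 8.96, 8.64 and 8.81 in control muscle. Its ratios were -0.76, -0.11 and -0.02, so that 1 array carried nearly all of the mean of -0.30 ± 0.40 (limma, adjusted p = 0.291). Without replicate 1 the mean was -0.07. The difference between the junctophilin ratios, 0.16 ± 0.46 for Jph1 minus Jph2, changed sign between arrays (exact two-sided sign-flip permutation test, p = 0.75).

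**Figure D3:**
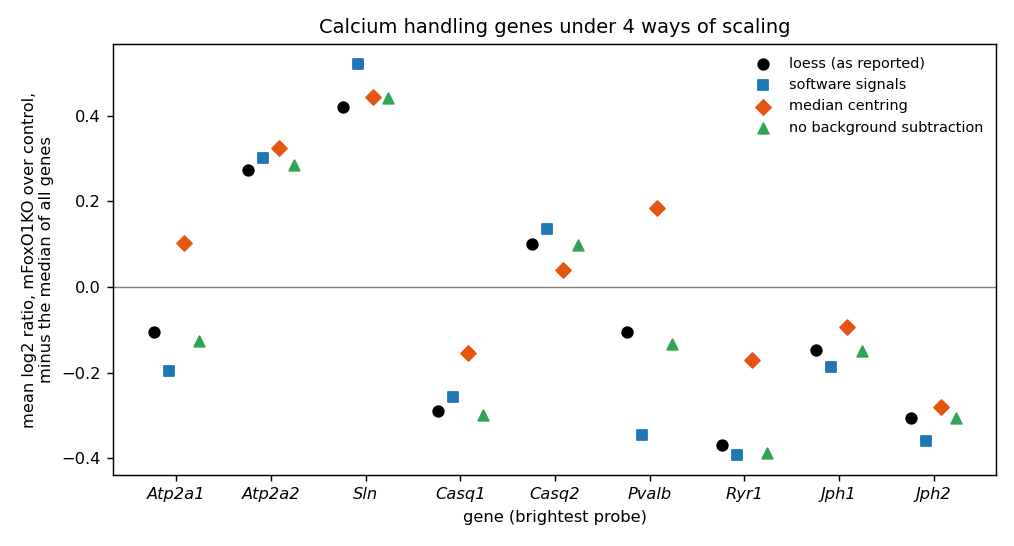
Mean log2 ratio of mFoxO1KO over control minus the median of all genes in that setting (y axis) for the 9 tested genes (x axis) under 4 ways of scaling. Atp2a2, Sln and Casq2 stay above 0 and Casq1, Ryr1, Jph1 and Jph2 below 0 in all 4, while Atp2a1 and Pvalb lie above 0 with median centring and below 0 in the other settings.

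Markers of skeletal muscle, of its fibre types and of other cells were read beside these ratios. Of 8 skeletal muscle markers 7 had mean ratios above 0 and 1 rose, Mb (0.57, limma adjusted p = 0.045). Of all genes, 2% were higher past the threshold. At an unadjusted p under 0.05 there were 3 of the 8, against 26.8% of all genes. The summed intensity of this list was 710279 to 757202 in mFoxO1KO muscle, against 652464 to 670677 in control muscle. Of 8 slow-fibre markers 0 passed (limma, 1 of them at an unadjusted p under 0.05, against 26.8% of all genes), with medians of -0.57, 0.25 and 0.00 on the 3 arrays. Their summed intensity was 5333 to 7392 in mFoxO1KO muscle against 4924 to 5998 in control muscle. Tpm3 was by far the brightest of them, with a mean log2 intensity of 12.23 in mFoxO1KO and 12.08 in control muscle. Myh7, Myl2, Tnnc1 and Tnni1 were dim, with means of 6.60, 6.84, 6.64 and 6.71 in mFoxO1KO muscle. Their means in control muscle were 7.07, 7.16, 6.75 and 6.67. Atp2a2 and Sln both had their highest ratio on array 2. Casq2 had its lowest there, with 0.12, 0.03 and 0.17 on the 3 arrays. Atp2a2, Sln and Casq2 were above 0 on every array. Whether their order over arrays follows that of the slow-fibre list was not tested. Of 10 fast-fibre markers 1 fell, Myl1 (-0.60, limma adjusted p = 0.0358), where 0.664% of all genes were lower past the threshold. The list medians were -0.08, -0.04 and 0.18. At an unadjusted p under 0.05 there were 4 of the 10, 2 higher and 2 lower, against 26.8% of all genes. The summed intensities were 803279 to 860718 in mFoxO1KO muscle against 809996 to 852957 in control muscle. All 7 measured of 9 adipocyte markers had mean ratios above 0, with medians of 2.93, 0.22 and 1.87. None of them was past the threshold (limma, 6 at an unadjusted p under 0.05, against 26.8% of all genes). Their summed intensity was 100995 to 204415 in mFoxO1KO muscle, against 39568 to 92682 in control muscle. Other cell types also use SERCA2. Smooth muscle had list medians of 0.14, -0.12 and -0.09 over 6 of 6 markers, endothelium 0.24, 0.03 and 0.09 over 6 of 6, fibroblasts 0.21, 0.09 and 0.09 over 5 of 5, and macrophages -0.10, 0.51 and 0.57 over 4 of 6. No marker of these 4 lists passed (limma). At an unadjusted p under 0.05 there were 5 with ratios above 0 and 1 with a ratio below 0, where 26.8% of all genes had such a p. Summed intensities of the macrophage markers were 2029 to 2574 in mFoxO1KO muscle, against 1561 to 2164 in control muscle. The part of fibre type and of other cells in the ratios of the calcium handling genes was not tested.

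A wider list of 76 genes of calcium signalling was set beside them. Of these, 72 were on the array and 64 were tested, with 1 higher, 2 lower and 61 not past the threshold (limma), where 2% of all genes were higher and 0.664% lower. An unadjusted p under 0.05 was found for 25 of the 64, 14 higher and 11 lower, against 26.8% of all genes. The median ratio of the 64 was 0.02, against 0.01 over all genes. The gene that rose was Rcan1, an inhibitor of the phosphatase calcineurin that is itself a calcineurin target. It had log2 intensities of 10.78, 10.90 and 10.42 in mFoxO1KO muscle, against 9.84, 9.96 and 9.83 in control muscle, with no overlap. The ratio was 0.82 ± 0.20, or 1.77-fold (n = 3, limma adjusted p = 0.0394). It passed in 13 of 19 alternatives, with adjusted p of 0.000966 to 0.252, and lost the call without replicate 2 (0.151).

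Among the genes that fell was Trdn, for triadin, which anchors calsequestrin to the ryanodine receptor. It had 12.69, 12.62 and 13.01 in mFoxO1KO muscle, against 13.36, 13.45 and 13.45 in control muscle, and fell by 0.65 on the log2 scale (SD 0.20, n = 3, limma adjusted p = 0.0486). The call was fragile, since it held in 6 of 19 alternatives (adjusted p of 0.0125 to 0.262) and was lost without replicate 1, 2 or 3 (0.0693, 0.174 and 0.0518). The other Trdn probe had -0.27 (limma, adjusted p = 0.102 over all probes).

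Partners of the release channel other than triadin gave ratios on both sides of 0. Of 11 tested genes of release channels and their partners, triadin included, 1 passed, which was Trdn, where 2.67% of all genes passed. An unadjusted p under 0.05 was found for 5 of the 11, against 26.8% of all genes. Of the 11, 6 had ratios above 0 and 5 below. Asph, whose transcripts include junctin, had -0.40 ± 0.14 on its brightest probe (limma, adjusted p = 0.0637), while its other probes had 0.13, 0.53 and -0.51. Of these, the probe with -0.51 passed when probes were tested on their own (limma, adjusted p = 0.0375). Jsrp1, a junctional face protein gene, had 0.25 ± 0.06 (adjusted p = 0.0878), and the potassium channel gene Tmem38b, of the reticulum, had 0.22 ± 0.07 (adjusted p = 0.108). None of 6 genes of the voltage sensor passed (3 at an unadjusted p under 0.05, which 26.8% of all genes had), with a median of -0.15. Among them Stac3, an adaptor of the voltage sensor, had -0.37 ± 0.15 (limma, adjusted p = 0.0764).

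**Figure D4:**
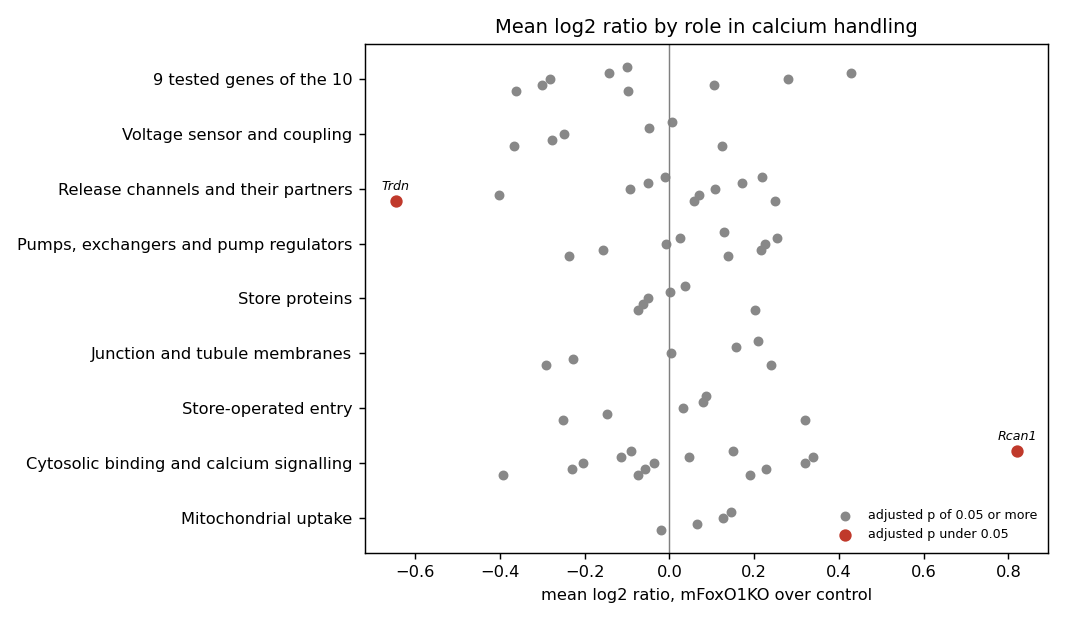
Mean log2 ratio of mFoxO1KO over control (x axis) for the 9 tested calcium handling genes and 63 of the 64 tested genes of the wider list, in rows by role (y axis). Red points, Rcan1 and Trdn, passed an adjusted p of 0.05, and the other points lie between -0.40 and 0.43.

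Among 9 further pump, exchanger and regulator genes none passed (limma, 4 at an unadjusted p under 0.05, against 26.8% of all genes), with a median of 0.13. Atp2a3, the pump of blood and endothelial cells, had 0.25 ± 0.08 (limma, adjusted p = 0.0922) and Sri, for sorcin, 0.22 ± 0.08 (adjusted p = 0.116). Of 6 store proteins, 6 genes of junction and tubule membranes, 6 of store-operated entry and 4 of mitochondrial uptake none passed (limma), and at an unadjusted p under 0.05 there were 1, 4, 1 and 0, against 26.8% of all genes. Bin1, which shapes the tubules, had 0.24 ± 0.04, Mtm1, a lipid phosphatase of the tubules, -0.29 ± 0.17, and the store sensor gene Stim2 0.32 ± 0.13 (limma, adjusted p of 0.0873, 0.112 and 0.0853). The other Mtm1 probe had -0.05 (limma, adjusted p = 0.648 over all probes). Of the cytosolic calcium binding and signalling genes, Rcan1 rose, and 14 of 16 did not pass. An unadjusted p under 0.05 was found for 7 of the 16, against 26.8% of all genes. The calcineurin genes Ppp3ca and Ppp3r1 had -0.39 ± 0.13 and -0.20 ± 0.04 (limma, adjusted p of 0.0642 and 0.110). The second calcineurin inhibitor gene, Rcan2, had 0.34 ± 0.15 (limma, adjusted p = 0.0837). S100a1, for a calcium binding protein of the cytosol, had 0.32 ± 0.15 (limma, adjusted p = 0.0919), with 0.38 on its other probe.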

How the data were processed

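RNA of 3 mFoxO1KO and 3 control samples was compared on 3 two-colour Agilent arrays, all on 1 slide and in 1 scan. The deposited files hold, per the file headers, the median intensity of each spot and its local background, the intensity after the software's own processing, log10 ratios of Cy5 over Cy3, and flags. The headers name Feature Extraction 11.5.1.1, whereas the submitters' processing notes name 9.3.2.1. Knockout was Cy5 and control Cy3, per the labels. Mean signals and gene names were not used here.

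Median intensities were corrected with normexp (offset 50) and loess within each array in limma 3.58.1 (R 4.3.3). Spots flagged as outliers (281 to 319 per array) were left out. Probes well above background in the same channel on all 3 arrays were kept, the brightest probe stood for a gene, and the mean log2 ratio of 17477 genes was tested with moderated statistics and Benjamini-Hochberg adjustment. Accessions of 27508 of 39429 probes (69.8%) matched a symbol in RefSeq (GRCm38.p6), and the others stayed unnamed. Promoters came from the same release. The fit was tested on simulated data.

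All 10 calcium handling genes, Foxo1, and up to 16 genes of the wider list (those past the threshold, then the smallest p) were named. The genes and lists were chosen with earlier results of these data known. Alternatives were other background corrections, scalings, filters, probe choices, variance models, separate channels, leaving out each array, and keeping flagged spots. The values of 1 gene of the wider list are not reported here.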

Additional observations from a re-analysis of the deposited data

How the results depend on the processing

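No calcium handling gene passed under 17 of 19 alternatives. With median centring in place of loess 1 passed, where 7.07% of all genes passed. In separate channels with the array as replicate block, which pairs the samples of an array, 2 passed, where 9.36% of all genes passed. The block fit called 1633 genes and 10 of the wider list, with Atp2a2 at 0.28 and Casq1 at -0.28, and the same channels without the block called 216 genes. Median centring moved the median of all genes by 0.16, called 1235 genes (1184 higher and 51 lower, against 350 and 116) and 6 of the wider list, and gave Sln 0.60. It turned the sign of Atp2a1 (0.26), Pvalb (0.34), Casq1 (0.0032), Jph1 (0.063) and Ppp3r1 (0.051). Relative to that median, Atp2a1 was 0.10 and Pvalb 0.18 above it, and Casq1 and Jph1 remained below it. The cause was not tested. The count of all genes was 260 with local background subtracted, 201 with the software's signals or deposited ratios, 55 with both channels above background, 747 with no filter on dim probes, 9 among genes above the median intensity, 708 with an intensity trend and robust variance, and 0 with no moderation, where 17.8% had an unadjusted p under 0.05. The wider list had 1 call with local background subtracted or probes averaged, and 0 with the software's signals, the deposited ratios, both channels above background, genes above the median intensity, or no moderation. Leaving out 1 array left 49 to 407 genes, 0 to 2 of the wider list and 0 calcium handling genes past the threshold, with the fewest genes without replicate 2. Having 3 arrays without a dye swap and probes near background, such as that of Pln, limits what can be measured.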

Other observations

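Several contractile genes of slow and 2A fibres had ratios that differed widely between arrays. Myh2, the myosin heavy chain of 2A fibres, had log2 ratios of mFoxO1KO over control of -1.69, -0.34 and 1.36 (limma, adjusted p = 0.830). Myl3, a light chain of slow fibres, had -0.91, 0.37 and 0.89, and Myoz2, a slow-fibre protein of the Z-disc, -0.35, 0.77 and 1.48. Myh7, the slow myosin heavy chain, had -0.80, -0.05 and -0.56 (limma, adjusted p = 0.142). It was dim, with a mean log2 intensity of 6.60 in mFoxO1KO and 7.07 in control muscle. Atp2a2 and Casq1 kept 1 sign on the same arrays, which 52.4% of all genes did. The contractile genes were picked from the slow-fibre and fast-fibre lists after their values were seen, so no conclusion is drawn from the contrast.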
